A study of Mus musculus with 16 samples.

Results

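CA3 pyramidal neuron nuclei were taken from droplet-based single-nucleus RNA sequencing of the mouse hippocampus. A nucleus was a member when it had 1000 to 7000 detected genes, at most 5% mitochondrial unique molecular identifiers (UMIs, the counted RNA molecules), at least 4 of the 7 CA3 markers 4930467D21Rik, Gm32647, Ccbe1, Grik4, Nectin3, Tspan18 and 9530026P05Rik, and no UMI of Prox1, Fibcd1, Gad1, Gad2, Mog, Pdgfra or Csf1r, which mark other cells. Of 155084 barcodes, 129802 were within the limits on genes and mitochondrial UMIs, and 6630 were members. The 16 libraries fell into 4 groups of 4: wild-type C57BL/6 males (WT) and Ifnar1-/- males (KO), each given repeated intraperitoneal injections of vehicle or of DMXAA, which activates STING in mice. The labels give 2 months and 23 days as the age of WT mice and 3 months and 3 days as that of KO mice, so genotype and age cannot be told apart, and the labels do not describe the KO mice as littermates of the WT mice. Replicate numbers here follow accession order, and the p-values measure the spread between libraries, which the labels do not tie to named animals.

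CA3 pyramidal neurons receive mossy fiber input from dentate granule cells, excite one another through recurrent collaterals, and project to CA1 through the Schaffer collaterals. STING senses a cyclic dinucleotide that cGAS makes from ATP and GTP when it binds cytosolic DNA. Through TBK1 and IRF3, STING then turns on type I interferon genes. Secreted interferon binds the receptor IFNAR1/IFNAR2 on the same or other cells, and STAT2, IRF9 and their partners then carry the signal to interferon-stimulated genes, many of which hold an interferon-stimulated response element (ISRE) in their promoters. Whether CA3 neurons carry this response, and whether it needs IFNAR1, is the question the 4 groups address, together with the state of the neuronal MEF2C network.

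Most CA3 markers that the rule did not use were higher in members than in CA1 and dentate nuclei. All 11 further CA3 markers were in the files, and 10 of them had a higher median level in members than in CA1 pyramidal nuclei (5627 nuclei) and dentate granule nuclei (10591 nuclei) chosen by rules of the same kind. Trps1 had a median over libraries of 1257 CPM (UMIs of the gene per 1000000 member UMIs) in members, 116 in CA1 and 88.5 in dentate nuclei, and Spock1, a proteoglycan, had 1192, 157 and 62.5 CPM. Nptx1, a neuronal pentraxin, was the exception, at 46.9 CPM in members, 20.5 in CA1 and 54.9 in dentate nuclei. These values describe the selection and were not tested.

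The 7 markers of the rule were themselves at unequal levels. Grik4, a kainate receptor subunit found at mossy fiber synapses, had a median of 1334 CPM over libraries and the noncoding Gm32647 1196 CPM, while Tspan18, a tetraspanin, had 111 CPM and 4930467D21Rik 81.2 CPM. Nectin3, an adhesion molecule, varied least between groups, from 259.8 ± 18.4 TMM-scaled CPM in WT DMXAA to 331 ± 21.2 in KO DMXAA (mean ± SD, n = 4). Since these genes chose the nuclei, they were left out of every test.

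The rule also let in nuclei of other kinds. Clustering of the members gave 17 clusters, and 8 of them, with 4439 nuclei or 67.0% of members, showed no set of markers of another class. Among the rest, 358 nuclei formed a CA2-like cluster with all 8 CA2 markers, including Rgs14 and Amigo2, and 328 formed a hilar mossy cell-like cluster with Calb2 and Drd2. Another 507 nuclei formed a cluster led by Tshz2 and Mpped1 with CA1 markers such as Wfs1, and 464 formed one led by Cux2 and Mef2c with 3 dentate granule markers. Smaller clusters carried dentate granule markers (220 nuclei), astrocyte markers (168 and 55 nuclei), subiculum and cortex markers (49 nuclei) or choroid plexus markers (42 nuclei). A doublet search by simulated pairs marked 566 members, 8.54%. Members that just met the rule, with 4 markers, numbered 1661 and had a median of 12412 UMIs and 3679 genes, and the 4357 nuclei just outside it, with 3 markers, had 10028 UMIs and 3341 genes.

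**Figure D1:**
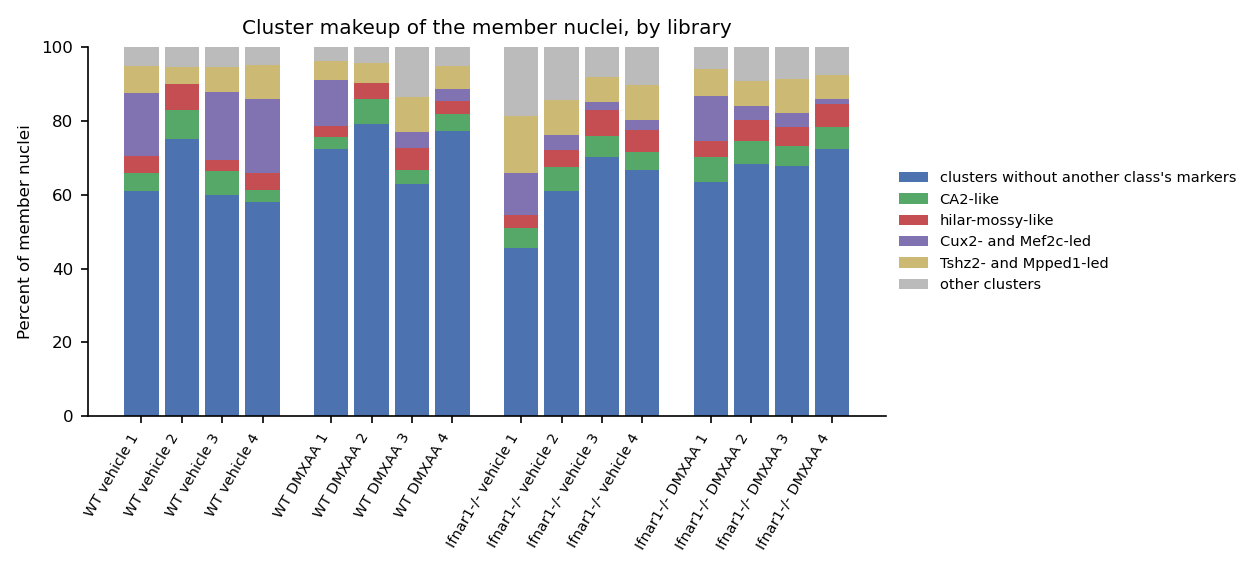
Percent of member nuclei (y axis) in each kind of cluster, 1 stacked bar for each of the 16 libraries (x axis). Clusters without markers of another class held from 45.6% of members in KO vehicle replicate 1 to 79.1% in WT DMXAA replicate 2.

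The libraries gave 261 to 683 members each (median 399) with 6071871 to 10386059 member UMIs, and the median UMI count per nucleus was 12964 to 23109. Of the 120 pairs of libraries, 4 shared a member barcode, 1 each. WT DMXAA replicate 3 stood apart from its group. Malat1, a nuclear long noncoding RNA, took 2.38% of its member UMIs against 9.10% to 11.96% in the other WT DMXAA libraries, 6.63% to 7.83% in WT vehicle and 1.26% to 2.39% in KO vehicle. Of 6444 genes that differed between KO and WT vehicle nuclei, 86.7% lay nearer the KO vehicle mean than the WT vehicle mean in this library, against 5.06% to 6.52% in the other 3. The same count was 56.3% to 88.6% in the KO DMXAA libraries. Its Ifnar1 level, 15.03 CPM, lay within the 13.6 to 16.2 CPM of WT vehicle and above the 7.82 to 10.6 CPM of KO vehicle. Results are therefore given with and without this library where it moved them. The nuclei were also unevenly composed: a cluster of 545 nuclei without other markers came mostly from WT vehicle replicates 1, 3 and 4 (142, 145 and 142 nuclei) and KO DMXAA replicate 1 (97 nuclei), and a cluster of 91 nuclei came from KO vehicle replicate 1 alone. Another cluster without other markers, of 1082 nuclei, held 1, 113, 4 and 1 nuclei in WT vehicle and 101, 111, 127 and 80 in WT DMXAA. The makeup of the clusters without other markers thus differed between the WT groups. Its part in the DMXAA values was not tested.

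Ifnar1, which encodes a chain of the type I interferon receptor, was counted at 15.5, 15.2, 13.6 and 16.2 CPM in the 4 WT vehicle libraries and at 7.82, 10.4, 9.56 and 10.6 CPM in KO vehicle. Every KO vehicle library was below every WT vehicle library, and the log2 fold change was -0.65 (standard error, SE, 0.15; adjusted p = 0.00505, edgeR quasi-likelihood test with Benjamini-Hochberg adjustment over all genes tested). Which part of the gene the Ifnar1-/- allele lacks was not given in the sources used here, and 3′ counts from other parts of a transcript do not check a deletion.

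In WT mice 3 genes rose with DMXAA in CA3 nuclei, all of them interferon-stimulated and Xaf1 and Ifit1 among them. No gene fell at the threshold in this fit. These were 3 of 14806 genes tested, or 0.0203%, called where the adjusted p was below 0.05 with a log2 fold change beyond 0.1 in either direction, while 888 genes had an unadjusted p under 0.05. Levels per library below are counts summed over a library's members and scaled to CPM with trimmed mean of M values (TMM) factors.

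Xaf1 (ENSMUSG00000040483, chr11:72301629-72313733 in GRCm38, plus strand) encodes XIAP-associated factor 1, an interferon-induced protein that binds inhibitors of apoptosis. Its level was 1.11, 1.60, 1.56 and 0.996 CPM in the 4 WT vehicle libraries and 9.11, 7.26, 5.66 and 4.998 CPM in WT DMXAA. The groups did not overlap, and all 4 DMXAA libraries were high, replicate 3 included. The log2 fold change was 2.34 (SE 0.27; adjusted p = 0.00257). Without WT DMXAA replicate 3 it was 2.41 (adjusted p = 0.000667), and in the nuclei of clusters without other markers it was 2.44 (adjusted p = 0.0104). The call was lost in 1 of 25 other settings, without nuclei holding CA2 or mossy cell markers (2.28, adjusted p = 0.123).

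Ifit1 (ENSMUSG00000034459, chr19:34640871-34650009, plus strand) encodes a protein that binds viral RNA lacking the host cap. It was at 0.553, 0.799, 0.361 and 0.569 CPM in WT vehicle and at 30.6, 11.5, 2.37 and 5.11 CPM in WT DMXAA. The groups did not overlap, with replicate 1 highest and replicate 3 lowest among the DMXAA libraries. The log2 fold change was 4.41 (SE 0.70; adjusted p = 0.0461), 4.76 without WT DMXAA replicate 3 (adjusted p = 0.000667), and 4.23 in the clusters without other markers (adjusted p = 0.0965). The call was lost in 13 of 24 other settings, with adjusted p-values of 0.185 to 0.251 where 1 WT vehicle library was left out.

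**Figure D2:**
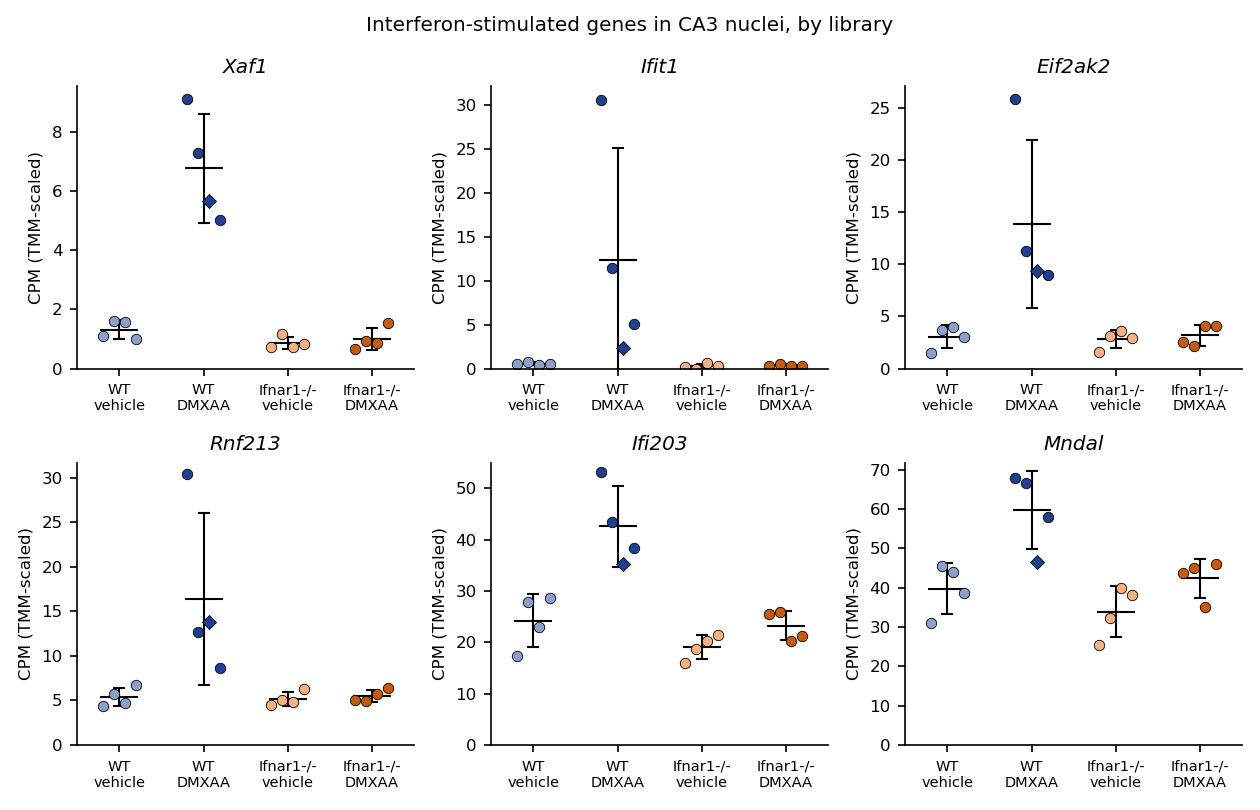
TMM-scaled CPM (y axis) of Xaf1, Ifit1, Eif2ak2, Rnf213, Ifi203 and Mndal in CA3 nuclei of each library (points) by group (x axis), with the mean and SD of 4 libraries; the diamond marks WT DMXAA replicate 3. WT DMXAA replicate 1 was the highest library for each of the 6 genes, and the 3 other groups of Rnf213 lay between 4.42 and 6.69 CPM.

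The promoters of these genes are shown because interferon signals can act through short promoter motifs. How the signal reaches these genes was not tested. The sequences are RefSeq promoters of GRCm38.p6, 250 bases before to 50 bases after the start, on the gene's own strand, and capitals mark matches to the ISRE core, here 2 copies of GAAA with 2 bases between them, on either strand.
Ifit1 (chr19:34640639-34640938, plus strand): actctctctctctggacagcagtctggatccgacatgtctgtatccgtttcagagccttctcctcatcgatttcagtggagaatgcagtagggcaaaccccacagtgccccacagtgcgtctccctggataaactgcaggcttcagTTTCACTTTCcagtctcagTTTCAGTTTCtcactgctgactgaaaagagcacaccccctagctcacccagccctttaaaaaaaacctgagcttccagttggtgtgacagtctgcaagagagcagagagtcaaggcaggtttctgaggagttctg
Xaf1 (chr11:72301379-72301678, plus strand): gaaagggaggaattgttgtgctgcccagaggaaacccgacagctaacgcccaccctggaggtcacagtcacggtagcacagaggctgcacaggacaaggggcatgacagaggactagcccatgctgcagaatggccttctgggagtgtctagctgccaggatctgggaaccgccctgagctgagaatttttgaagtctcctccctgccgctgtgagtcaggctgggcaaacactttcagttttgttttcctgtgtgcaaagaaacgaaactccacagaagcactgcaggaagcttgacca
The Ifit1 promoter held 2 matches, TTTCACTTTC starting at -104 and TTTCAGTTTC starting at -85 from the start, both of them the motif read on the minus strand. The Xaf1 window held none of these letters, nor the gamma-activated site (GAS) core, TTC and GAA with 3 bases between them. Of 32851 mouse promoters of this length, 3.44% held the ISRE core and 8.3% the GAS core on either strand. Of the 26 interferon genes tested in CA3 nuclei, 22 had a promoter in the table, and 10 of these held the ISRE core (45.5%) and 4 the GAS core (18.2%).

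The wider interferon list leaned the same way in WT mice. It held 90 genes, of which 88 were in the files, 4 had no UMI in any member and 26 had enough counts to be tested. The median log2 fold change of the 26 was 0.85 against 0.03 for all genes, and all 26 had a positive value. In 13 of the 26 (50%) every WT DMXAA library was above every WT vehicle library, which held for 1.8% of all genes tested. By library, the list median against WT vehicle was 1.29, 0.75, 0.36 and 0.55 for WT DMXAA replicates 1 to 4, so replicate 3 was the lowest and still above 0. A low gene can pass the filter on counts through its DMXAA libraries alone, so these values describe the tested genes and not the whole list.

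The signalling genes Irf9 and Stat2 did not pass. Irf9, which binds DNA together with STAT2, was at 6.49, 7.19, 9.98 and 8.54 CPM in WT vehicle and at 20.96, 13.7, 12.8 and 12.1 CPM in WT DMXAA (log2 fold change 0.88, SE 0.22, adjusted p = 0.382). Stat2 was at 28.9 to 32.5 CPM in WT vehicle and at 70.9, 41.1, 37.7 and 35.6 CPM in WT DMXAA (0.57, SE 0.17, adjusted p = 0.501). The groups of both genes did not overlap.

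Of the RNA sensors, none of 3 tested passed, with a median log2 fold change of 2.17. Eif2ak2, the kinase PKR that halts translation on double-stranded RNA, was at 1.52, 3.73, 3.97 and 2.99 CPM in WT vehicle and at 25.9, 11.2, 9.37 and 8.95 CPM in WT DMXAA (2.17, SE 0.37, adjusted p = 0.0631). Ddx60, a helicase that aids RIG-I, was at 0, 1.47, 0.842 and 1.14 CPM in WT vehicle and at 20.3, 5.39, 7.10 and 4.65 CPM in WT DMXAA (3.41, SE 0.62, adjusted p = 0.0830). Neither pair of groups overlapped, and without WT DMXAA replicate 3 both passed, Eif2ak2 with an adjusted p of 0.0109.

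Of 6 antiviral effectors tested, Xaf1 and Ifit1 passed, and the median was 1.68. Oasl2, of the 2′-5′ oligoadenylate synthetase family, was at 0, 0.133, 0.842 and 0.569 CPM in WT vehicle and at 28.3, 3.51, 4.43 and 3.02 CPM in WT DMXAA (4.57, SE 0.83, adjusted p = 0.0830). Among the ubiquitin ligases and PARPs, 0 of 4 tested passed. Rnf213, a giant ubiquitin ligase, was at 4.42, 5.73, 4.69 and 6.69 CPM in WT vehicle and at 30.4, 12.7, 13.8 and 8.60 CPM in WT DMXAA (1.60, SE 0.30, adjusted p = 0.0934), again with no overlap. Of 5 antigen presentation genes none passed. H2-K1, a class I heavy chain, had 0.893 ± 0.271 CPM in WT vehicle and 2.35 ± 1.05 in WT DMXAA (mean ± SD, n = 4), with an adjusted p of 0.472.

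Ifi203 and Mndal, PYHIN proteins of the nucleus that bind DNA, had higher levels in vehicle CA3 nuclei than in vehicle CA1 or dentate nuclei. In WT vehicle libraries Ifi203 averaged 24.2 CPM in CA3 nuclei, 0.624 in CA1 and 0.703 in dentate nuclei, and Mndal 39.7, 0.890 and 2.25 CPM. Mndal was on the list of CA3 markers, so its higher level describes the selection. Ifi203 was at 17.4, 27.8, 23.1 and 28.6 CPM in WT vehicle and at 53.2, 43.5, 35.2 and 38.5 CPM in WT DMXAA (0.81, SE 0.16, adjusted p = 0.121). Mndal was at 31.1, 45.4, 43.9 and 38.6 CPM in WT vehicle and at 68.0, 66.7, 46.6 and 57.9 CPM in WT DMXAA (0.59, SE 0.16, adjusted p = 0.460). All DMXAA libraries of both genes were above all vehicle libraries, and without WT DMXAA replicate 3 their adjusted p-values were 0.0157 and 0.0455. These 2 genes neighbour other near-identical members of their family, so reads may be split among copies.

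Without WT DMXAA replicate 3, 66 of 15004 genes (0.44%) passed in WT mice, 35 higher and 31 lower. Of these, 11 were on the interferon list, all higher, among them Bst2, Ddx60, Eif2ak2, Ifi203, Ifi27, Ifit1, Mndal, Oasl2, Rnf213 and Xaf1. The largest rise of the 66 was that of Gh, the pituitary growth hormone gene, which rested on 1 library. WT DMXAA replicate 4 held 8828 Gh UMIs in members, against 11 in each of replicates 1 and 2 and 1 to 24 in WT vehicle. With all libraries, DESeq2 in place of edgeR called 24 genes (0.162%), 19 higher and 5 lower, of which 8 were on the list.

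Markers of microglia were summed beside these values. Of the 4 tested, 0 passed with DMXAA in WT mice, where only 0.0203% of all genes passed. Their median log2 fold change was 0.24, against 0.03 for all genes. The summed level of 8 microglial markers in members, of which Csf1r was at 0 by the rule, was 62.2 to 78.6 CPM in WT vehicle (median 71.6), 28.3 to 105 in WT DMXAA (median 97.1), 22.8 to 36.5 in KO vehicle and 34.2 to 45.5 in KO DMXAA. Its part in the interferon values was not tested.

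In KO mice, DMXAA changed no gene at the threshold by edgeR (0 of 14806, 0%), and none by DESeq2, while 997 genes had an unadjusted p under 0.05 by edgeR. Xaf1 was at 0.711, 1.15, 0.726 and 0.824 CPM in KO vehicle and at 0.674, 0.942, 0.857 and 1.53 CPM in KO DMXAA (log2 fold change 0.24, SE 0.35, adjusted p = 0.848). Ifit1 was at 0.178, 0, 0.605 and 0.275 CPM in KO vehicle and at 0.337, 0.538, 0.321 and 0.279 CPM in KO DMXAA (0.33, SE 1.20, adjusted p = 0.938). The groups of both genes overlapped. The list median was 0.13 against -0.01 for all genes, 20 of 26 genes had a positive value, and none had every DMXAA library above every vehicle library, against 4.73% of all genes. Without WT DMXAA replicate 3, whose removal changes the shared estimate of spread, 37 genes passed in KO mice, none of them on the interferon list.

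The genes nearest the threshold in KO mice were not on the interferon list, and astrocyte markers moved beside them. The summed level of 7 astrocyte markers in members was 546 to 622 CPM in KO vehicle and 420 to 492 CPM in KO DMXAA, with a median log2 fold change of -1.02 and no positive value, and 0 of the 7 passed. Without WT DMXAA replicate 3, Slc1a3, a glutamate transporter of astrocytes, had -1.01 (adjusted p = 0.0375) and Gli3 -1.61 (adjusted p = 0.0226). In the clusters without other markers the sums were 486 to 626 CPM with vehicle and 418 to 532 CPM with DMXAA. Most of each sum was Slc1a2, which in all members was at 492 to 558 CPM in KO vehicle and 385 to 467 CPM in KO DMXAA. Its median over libraries was 397 CPM in all members and 443 CPM in those clusters, while that of Slc1a3 was 24.6 and 8.1 CPM. The part of astrocyte RNA in the following values was not tested. Ezr, which links membrane proteins to actin, was at 4.62, 4.12, 4.72 and 5.49 CPM in KO vehicle and at 1.52, 2.02, 1.499 and 2.37 CPM in KO DMXAA (log2 fold change -1.35, SE 0.25, adjusted p = 0.407). Palld, an actin-bundling protein, was at 5.08 to 8.90 CPM in KO vehicle and at 2.65 to 3.32 CPM in KO DMXAA (-1.12, SE 0.21, adjusted p = 0.407). Slc38a2, a glutamine transporter, was at 31.3 to 33.3 CPM in KO vehicle and at 40.6 to 43.9 CPM in KO DMXAA (0.40, SE 0.09, adjusted p = 0.611). The groups of all 3 did not overlap, and without WT DMXAA replicate 3 their adjusted p-values were 0.0332, 0.0337 and 0.0364. In the clusters without other markers the value of Palld was -0.50 (adjusted p = 0.823) and that of Slc38a2 was 0.41 (adjusted p = 0.758).

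The difference between the genotypes did not itself pass for any gene. The interaction of genotype and DMXAA called 0 of 14806 genes (0%) by edgeR, with 1067 at an unadjusted p under 0.05, and 2 by DESeq2, Palld and Pcdh11x. The WT effect minus the KO effect was 2.10 on the log2 scale for Xaf1 (SE 0.46) and 4.08 for Ifit1 (SE 1.57), with adjusted p-values of 0.514 and 0.635. All 26 interferon genes had a larger fold change in WT than in KO mice, with a median difference of 0.62 against 0.01 for all genes. A low gene can pass the filter on counts through the WT DMXAA libraries alone, which favours a larger fold change in WT. This count therefore describes the tested genes only.

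**Figure D3:**
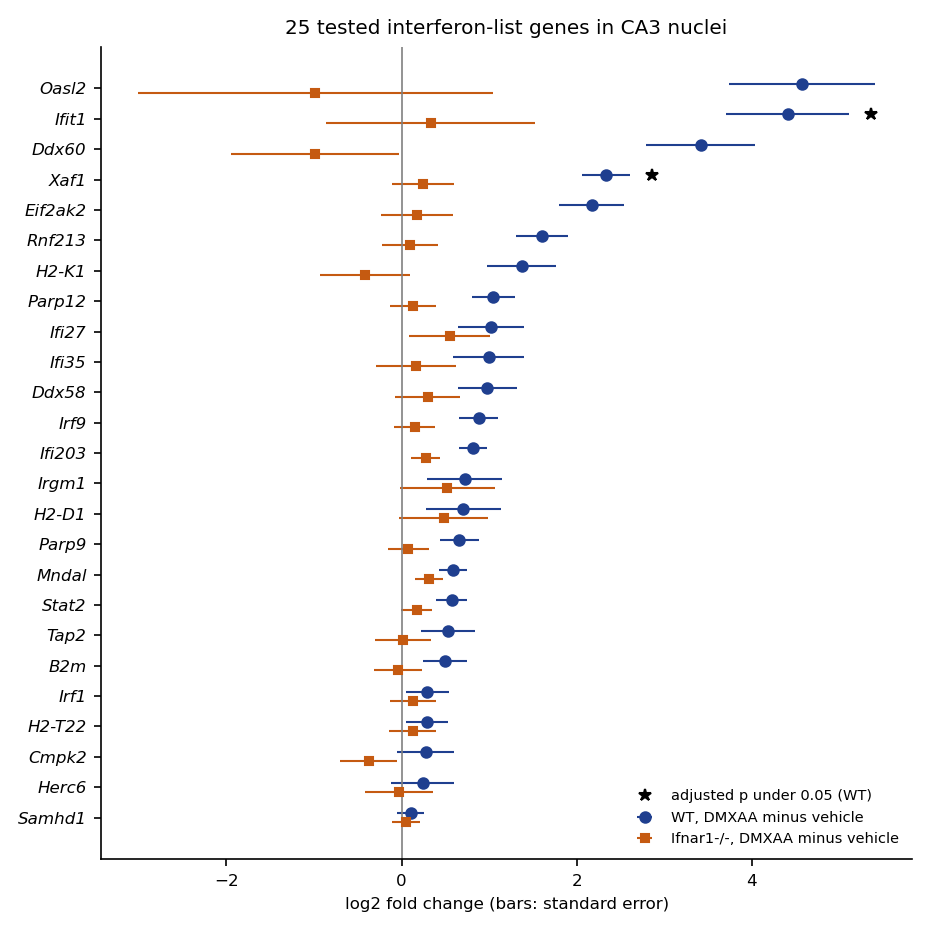
Log2 fold change of DMXAA against vehicle (x axis), with SE, of 25 interferon genes tested (y axis) in WT and KO CA3 nuclei; stars mark an adjusted p under 0.05. WT values ran from 0.11 to 4.57, and KO values from -0.99 to 0.55.

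Nuclei holding a UMI of an interferon gene were also counted. To compare nuclei of unequal depth each was thinned to 5000 UMIs, which left out 28 WT vehicle members, 66 of WT DMXAA, 64 of KO vehicle and 36 of KO DMXAA. An Eif2ak2 UMI was then found in 0.51% to 1.8% of nuclei per library in WT vehicle, 4.88% to 13.5% in WT DMXAA, 0.299% to 1.7% in KO vehicle and 0.34% to 2.1% in KO DMXAA. Unthinned, the ranges were 2.52% to 7.49% in WT vehicle and 12.2% to 32.3% in WT DMXAA. Nuclei with UMIs of at least 2 of the 6 genes Xaf1, Ifit1, Eif2ak2, Rnf213, Ddx60 and Oasl2 made up 18.4%, 2.81%, 3.15% and 2.51% of WT DMXAA replicates 1 to 4, and no library of the other 3 groups was above 0.34%. WT DMXAA replicate 1 was the highest library in both thinned measures, and the lowest WT DMXAA library was above every library of the other groups. The 6 genes already separated WT DMXAA from WT vehicle in the summed counts of these nuclei, so their shares give no separate evidence. Ifi203, not among the 6, was found in 9.18% to 12.4% of thinned nuclei in WT vehicle and 11.3% to 22.1% in WT DMXAA. Its groups overlapped. Free RNA can give a nucleus UMIs of genes that it does not express, no cell class known to lack these genes was measured beside them, and the part of free RNA in these shares was not tested.

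Clusters of members had higher pooled Eif2ak2 with DMXAA in each case described, and differed in Ifi203. Pooled over libraries, Eif2ak2 was at 3.76 CPM in WT vehicle and 13.3 in WT DMXAA in clusters without other markers, at 2.21 and 5.25 in the CA2-like cluster (4 and 10 UMIs), at 6.31 and 15.4 in the mossy cell-like cluster and at 1.34 and 34.3 in the cluster led by Cux2 and Mef2c. The last value rested on WT DMXAA replicate 1, at 52.7 CPM in that cluster, against 5.26 and 18.06 in replicates 3 and 4. Ifi203 was at 38.6 and 58.1 CPM in clusters without other markers. It was at 1.11 and 3.68 in the CA2-like cluster (2 and 7 UMIs) and at 9.81 and 6.40 in the mossy cell-like cluster (14 and 10 UMIs). These pooled values carry no test.

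CA3 nuclei were compared with CA1 and dentate granule nuclei of the same WT libraries in the size of the interferon response. The test compared the DMXAA effects of 2 classes within libraries. An effect is a log2 fold change, so a positive value is a larger log2 fold change in CA3, not a larger gain in CPM. Ifit1 rose less in CA3 than in dentate nuclei with all libraries. Its mean level went from 0.570 to 12.4 CPM in CA3 and from 0.305 to 56.4 CPM in dentate nuclei, a difference of -3.15 (SE 0.50, adjusted p = 0.0299). The call was lost in 5 of 10 other settings, without any 1 of the WT vehicle libraries or WT DMXAA replicate 4, with adjusted p-values of 0.0599 to 0.144. Against CA1 its difference was 0.57 (adjusted p = 0.886). Against CA1, 5 of 14663 genes passed (0.0341%), and against dentate nuclei 13 of 15037 (0.0865%).

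Of the 26 interferon genes with enough counts in CA3 alone, 23 had a smaller effect in CA3 than in CA1, with a median difference of -0.86 against -0.01 for all genes. Against dentate nuclei 25 of the 26 had a smaller effect, with a median of -0.92 against -0.01. These comparisons tested 33 and 39 genes of the list, of which 1 and 5 passed, but a low gene can enter through the other class's DMXAA libraries alone, which favours a smaller effect in CA3. Among the 5 were Eif2ak2 (-2.21, adjusted p = 0.00624) and Ddx60 (-4.32, adjusted p = 0.00744), whose calls were lost in 1 of 10 other settings each, and Irf9 (-1.12, adjusted p = 0.0393), whose call was lost in 6 of 10. Eif2ak2 lost it without WT vehicle replicate 3 (adjusted p = 0.0690) and Ddx60 without WT vehicle replicate 4 (adjusted p = 0.0634). Dentate nuclei went from 0.950 to 20.9 CPM of Eif2ak2. A log2 fold change also depends on the vehicle level. Against CA1, Ifi203 had -1.06 (adjusted p = 0.530), but went from 24.2 to 42.6 CPM in CA3 and from 0.624 to 2.51 CPM in CA1. Ddx60 had -2.57 (adjusted p = 0.313), going from 0.861 to 9.36 CPM in CA3 and from 0.251 to 14.6 CPM in CA1. Xaf1, with the lowest adjusted p in CA3, did not pass in either comparison, with differences of -0.96 against CA1 (adjusted p = 0.588) and -0.36 against dentate nuclei (adjusted p = 0.929).

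Vehicle CA3 nuclei had a higher summed level of the list, which includes Ifi203 and the CA3 marker Mndal. The summed level of the 88 listed genes was 222 ± 26.0 CPM in WT vehicle CA3 nuclei, 121 ± 6.93 in CA1 and 117 ± 5.25 in dentate nuclei (mean ± SD, n = 4). In WT DMXAA replicates 1 to 4 it was 701, 406, 276 and 360 CPM in CA3, 722, 336, 226 and 301 CPM in CA1, and 969, 444, 276 and 374 CPM in dentate nuclei. The order of the 4 libraries was the same in the 3 classes, with replicate 1 highest and replicate 3 lowest. In KO mice CA3 sums were 130 to 161 CPM with vehicle and 157 to 187 CPM with DMXAA.

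**Figure D4:**
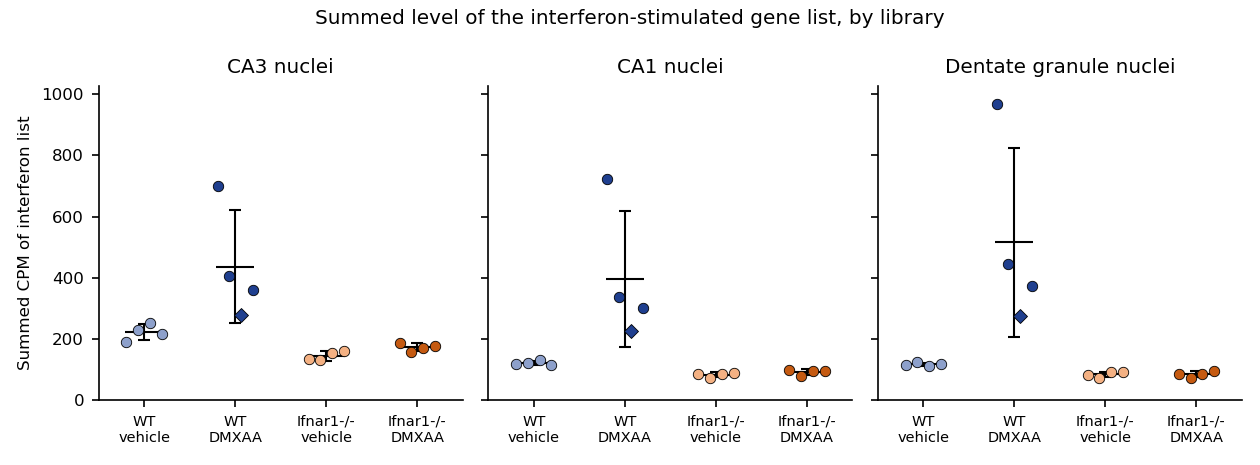
Summed CPM of the 88 interferon genes (y axis) in CA3, CA1 and dentate granule nuclei of each library (points) by group (x axis), with the mean and SD of 4 libraries. WT vehicle CA3 libraries lay between 190 and 253 CPM, above the 116 to 131 CPM of CA1, and WT DMXAA replicate 1 was the highest point of each class.

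The DMXAA effect in genes outside the interferon list also differed between CA3 and CA1 nuclei. Pcdh17, a protocadherin of axons and synapses, went from 69.9 to 107 CPM in CA3, from 99.8 to 87.9 CPM in CA1, and its effect was larger in CA3 by 0.78 (adjusted p = 0.00237) against CA1 and by 0.62 (adjusted p = 0.00624) against dentate nuclei. Col5a2, a fibrillar collagen chain, went from 2.04 to 9.45 CPM in CA3 and from 4.36 to 3.75 CPM in CA1 (2.39, adjusted p = 0.0270). Galntl6 (0.50, adjusted p = 0.0270) and Cacna1i, a T-type calcium channel (0.59, adjusted p = 0.0344), were the other genes with a larger effect in CA3 than in CA1. Against dentate nuclei these 3 did not pass, with differences of 1.58 for Col5a2 (adjusted p = 0.154), 0.46 for Galntl6 (adjusted p = 0.851) and 0.60 for Cacna1i (adjusted p = 0.4). Without WT DMXAA replicate 3 Col5a2 (adjusted p = 0.0121) and Galntl6 (adjusted p = 0.00284) passed against dentate nuclei and Cacna1i did not (adjusted p = 0.289). Galntl6 went from 507 to 678 CPM in CA3 and from 119 to 158 CPM in dentate nuclei, where WT DMXAA replicate 3 was at 419 CPM and the other 3 DMXAA libraries at 59.0 to 89.7. The calls of Col5a2, Galntl6 and Cacna1i against CA1 were lost in 6, 6 and 7 of 10 other settings, with adjusted p-values of 0.159, 0.268 and 0.159 without WT vehicle replicate 1 and 0.076 each without WT DMXAA replicate 3, while Pcdh17 passed in all 10 in both comparisons.

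In the main fit no gene outside the interferon list passed in CA3 itself in WT mice, and the nearest are given as values. Plagl1 and Pcdh11x each passed in 6 of 26 other settings, among them DESeq2 and the fit without WT DMXAA replicate 3. Plagl1, a zinc finger transcription factor from an imprinted locus, was at 7.74, 7.46, 10.2 and 8.25 CPM in WT vehicle and at 30.4, 36.3, 25.1 and 29.9 CPM in WT DMXAA, with no overlap (log2 fold change 1.85, SE 0.32, adjusted p = 0.0700). In KO mice it was at 7.82, 9.56, 16.6 and 9.75 CPM with vehicle and at 6.23, 28.0, 21.2 and 13.7 CPM with DMXAA, where the groups overlapped (0.66, adjusted p = 0.692). In WT nuclei of clusters without other markers the pooled level was 8.44 CPM with vehicle and 39.1 with DMXAA. It was 3.87 and 5.78 in the CA2-like cluster (7 and 11 UMIs) and 1.40 and 1.28 in the mossy cell-like cluster (2 and 2 UMIs).

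Pcdh11x, an X-linked protocadherin, was at 35.4, 35.7, 33.6 and 42.7 CPM in WT vehicle and at 99.5, 61.6, 86.6 and 74.6 CPM in WT DMXAA (1.13, SE 0.19, adjusted p = 0.0631). In KO mice it was already at 77.0, 70.2, 98.5 and 62.5 CPM with vehicle and at 53.2, 67.4, 85.7 and 46.7 CPM with DMXAA, and KO vehicle was higher than WT vehicle by 1.07 (adjusted p = 0.00292). Among the 5 genes with the lowest p among negative values in WT mice were Magi3, Kcna4, Tle2 and Usp2, at log2 fold changes of -0.48, -0.58, -0.71 and -0.53 and adjusted p-values of 0.146 to 0.373. Magi3, a scaffold protein of cell junctions, was at 198 to 249 CPM in WT vehicle and 141 to 175 CPM in WT DMXAA. These 4 had every DMXAA library below every vehicle library, as 1.09% of all genes did. Of 26 other settings Magi3 passed in 3, Tle2 in 2, Kcna4 in 1 and Usp2 in 0.

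Mef2c and the genes named with it by the study did not pass. The study reported Mef2c, Rgs6, Dpp10, Gria4 and Pdzrn3 as lower with DMXAA in excitatory neurons together, and MEF2C protein as lower in CA1 neurons. The values here are RNA of CA3 nuclei alone. Mef2c, an activity-dependent transcription factor of excitatory neurons, was at 289, 57.7, 250.3 and 265 CPM in WT vehicle and at 149.8, 55.2, 128 and 68.8 CPM in WT DMXAA (log2 fold change -1.10, SE 0.48, adjusted p = 0.785). The groups overlapped, and replicate 2 of WT vehicle was close to the lowest DMXAA library, at 55.2 CPM. In KO mice it was at 295, 159, 102 and 129 CPM with vehicle and at 192, 92.8, 107 and 51.0 CPM with DMXAA (-0.63, adjusted p = 0.709).

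Mef2c was unevenly spread over the clusters of members. In WT vehicle it was at 1432 pooled CPM in the cluster led by Cux2 and Mef2c and at 454 in the cluster led by Tshz2 and Mpped1. The cluster led by Cux2 and Mef2c gave 68, 0, 76 and 75 nuclei in the 4 WT vehicle libraries and 62, 1, 30 and 13 in the 4 WT DMXAA libraries. In KO mice it gave 30, 14, 10 and 11 nuclei with vehicle and 37, 15, 18 and 4 with DMXAA, and the library with the most of these nuclei had the highest Mef2c level in both KO groups and in WT DMXAA. The part of this cluster in the Mef2c values was not tested. In clusters without other markers Mef2c was at 32.4 pooled CPM with vehicle and 25.9 with DMXAA, and its log2 fold change was -0.30 (adjusted p = 0.799). Rgs6 (-0.95, adjusted p = 0.641), Dpp10 (-0.68, adjusted p = 0.984), Pdzrn3 (-0.99, adjusted p = 0.948) and Gria4 (-0.17, adjusted p = 0.999) did not pass either in all members. In the clusters without other markers Dpp10 (0.77), Gria4 (0.18) and Pdzrn3 (0.07) had positive values and Rgs6 a negative one (-0.53), none of which passed (adjusted p = 0.445 to 1). Of 225 tested genes that the study named as MEF2C targets altered by Cgas deletion, 0 passed in WT and 0 in KO mice. Over all genes 0.0203% passed in WT and 0% in KO mice, so these counts say little about the list. Its medians were 0.01 in WT and -0.20 in KO mice, against 0.03 and -0.01 for all genes. In KO mice 25 of the 225 had a positive value. The lists of glutamate receptors and synaptic adhesion molecules also had negative KO medians, of -0.20 and -0.15. The study described MEF2C targets both raised and lowered by Cgas deletion. The target list was not split by direction here, so its median gives no direction of the network.

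The lists of glutamate receptors (35 genes tested), GABA receptors (14), ion channels (51), synaptic adhesion molecules (43), presynaptic proteins (24), immediate early genes (22), clock genes (18) and stress genes (13) had no gene that passed under DMXAA in either genotype, as 0.0203% of all genes did in WT and 0% in KO mice. Without WT DMXAA replicate 3, where 0.44% of all genes passed in WT and 0.247% in KO mice, the potassium channel gene Kcnh5 (-0.67, adjusted p = 0.0251), the plexin gene Plxna2 (-0.49, adjusted p = 0.0235) and the presynaptic genes Unc13a (-0.44, adjusted p = 0.0163) and Syn3 (-1.01, adjusted p = 0.0347) were lower with DMXAA in WT mice, and the clock gene Rora was lower in KO mice (-0.57, adjusted p = 0.0332). The 37 genes called in KO mice in that fit held the astrocyte markers Slc1a3 and Gli3 beside Rora. In the clusters without other markers and without WT DMXAA replicate 3, Syn3 was the only gene called in KO mice. The part of astrocyte RNA in the Rora value was not tested. Immediate early genes, which follow neuronal firing, had a median log2 fold change of -0.33 in WT and 0.23 in KO mice.

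Genotype without DMXAA was the larger contrast. KO vehicle differed from WT vehicle in 6444 genes (43.5% of those tested), 3220 higher (21.7%) and 3224 lower (21.8%). In the nuclei of clusters without other markers 5448 of 13613 genes passed, and 4963 of these were among the 6444. The sources used here do not say whether libraries of both genotypes were prepared and sequenced together, so preparation and genotype cannot be told apart, and WT DMXAA replicate 3 lay nearer the KO mean for most of these genes, as given above. Ages differed between these groups, Malat1 took 1.26% to 2.39% of member UMIs in KO against 6.63% to 7.83% in WT vehicle, and median UMIs per nucleus were 18296 to 22547 in KO and 14122 to 15816 in WT vehicle. Summed astrocyte markers were at 546 to 622 CPM in KO vehicle and 380 to 436 CPM in WT vehicle, with 4 of 7 higher at the threshold, and summed interneuron markers, with Gad1 and Gad2 at 0 by the rule, were at 92.1 to 208 and 49.04 to 60.5 CPM. In the clusters without other markers the astrocyte sums were 486 to 626 and 387 to 458 CPM, and the interneuron sums 27.8 to 41.6 and 20.2 to 36.7 CPM. Most of the astrocyte sum was Slc1a2, which in all members was at 492 to 558 CPM in KO vehicle and 346 to 401 CPM in WT vehicle. Of 3 astrocyte markers tested in those clusters 2 were higher at the threshold, and Gja1 had -1.05 (adjusted p = 0.11). Most of the interneuron sum in all members was Adarb2 and Erbb4, and Adarb2 had a median of 2146 CPM in dentate nuclei. Adarb2 was at 36.3 to 126 CPM in KO vehicle and 26.4 to 36.5 CPM in WT vehicle. Sst went the other way, at 0.410 to 1.29 and 1.86 to 5.19 CPM. Of 3 interneuron markers tested, 2 were higher in KO at the threshold and 1 lower. The part of these markers in the genotype differences was not tested. Malat1 itself was lower in KO by a log2 fold change of -1.57 (adjusted p = 0.00375) and Son, a splicing cofactor, by -0.70 (adjusted p = 0.00315).

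Genes of excitatory synapses were mostly higher in KO CA3 nuclei. Of 35 glutamate receptor genes 23 passed (65.7%, against 43.5% of all genes), 22 of them higher. Gria1, an AMPA receptor subunit, was at 2619, 2868, 2253 and 2173 CPM in WT vehicle and at 4071, 5649, 4674 and 5119.5 CPM in KO vehicle, with no overlap (0.98, SE 0.21, adjusted p = 0.00355). In WT DMXAA it was at 2065, 2284, 4456 and 2389 CPM, so replicate 3 lay within the KO range. The NMDA receptor subunits Grin2a and Grin2b were higher by 0.86 and 0.52, and the kainate receptor subunits Grik2 and Grik3 by 0.45 and 2.11. Cnih2, an auxiliary subunit that exports AMPA receptors, was the 1 lower gene (-1.09, adjusted p = 0.00735).

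Of 51 ion channel genes 36 passed (70.6%, against 43.5% of all genes), all higher in KO. Cacna1c, the Cav1.2 calcium channel, was at 1194 to 1592 CPM in the WT vehicle libraries and at 2609 to 3938 CPM in KO vehicle (1.11, adjusted p = 0.00357), and Kcnma1, the BK potassium channel, was higher by 0.99 (adjusted p = 0.00307). Of 43 synaptic adhesion genes 26 passed (60.5%), 25 higher, among them the neurexin Nrxn3 (0.73). Of 24 presynaptic genes 15 passed (62.5%), 13 higher. Bsn, the active zone scaffold Bassoon, was at 184 to 209.9 CPM in WT vehicle and 324 to 468 CPM in KO vehicle (0.92, adjusted p = 0.00278). Slc17a7, the vesicular glutamate transporter VGLUT1, went the other way, at 266, 285, 266 and 279 CPM in WT vehicle and 159, 160.0, 176 and 165 CPM in KO vehicle (-0.73, adjusted p = 0.00290). Of 14 GABA receptor genes 8 passed (57.1%), 7 of them higher, among them Gabrg3 (0.88, adjusted p = 0.00316) and the GABA-B subunit Gabbr2 (0.92, adjusted p = 0.00340), while Gabrd, an extrasynaptic subunit, was lower (-1.56, adjusted p = 0.0475). Of 225 MEF2C targets 148 passed (65.8%, against 43.5% of all genes), 144 of them higher. This share was near those of the glutamate receptor (65.7%) and ion channel (70.6%) lists. The targets were not split by direction, so the count gives no direction of the network.

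The immediate early genes passed about as often as genes in general. Of 22 tested 9 passed (40.9%, near the 43.5% of all genes), 8 of them lower in KO, including Arc (-1.28, adjusted p = 0.0216) and Jun (-1.40, adjusted p = 0.0125), while Nr4a3 was higher (0.60, adjusted p = 0.0155). Of 13 stress genes 8 passed (61.5%), all 8 lower. Hsp90ab1, a cytosolic chaperone, was at 68.8, 72.9, 86.4 and 104 CPM in WT vehicle and 39.6, 39.5, 44.2 and 46.0 CPM in KO vehicle (-0.97, adjusted p = 0.00580), and the stress-induced factor Atf4 had -1.16 (adjusted p = 0.00322). Of 18 clock genes 4 passed (22.2%), with Rora (1.18), Npas2 (0.81) and Arntl (0.63) higher and Per3 lower (-0.42). The interferon list had 1 gene of 26 that passed, Ifi27, a mitochondrial and nuclear envelope protein, which was lower in KO (-1.61, adjusted p = 0.00948). Its level was 8.398 ± 2.64 CPM in WT vehicle and 2.70 ± 0.758 CPM in KO vehicle. The list median was -0.33 against -0.04 for all genes. Of 10 STING pathway genes 3 passed (30%), a smaller share than the 43.5% of all genes. Tbk1 (-0.43, adjusted p = 0.0156) and Irf3 (-1.22, adjusted p = 0.0132) were lower in KO beside Ifnar1.

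**Figure D5:**
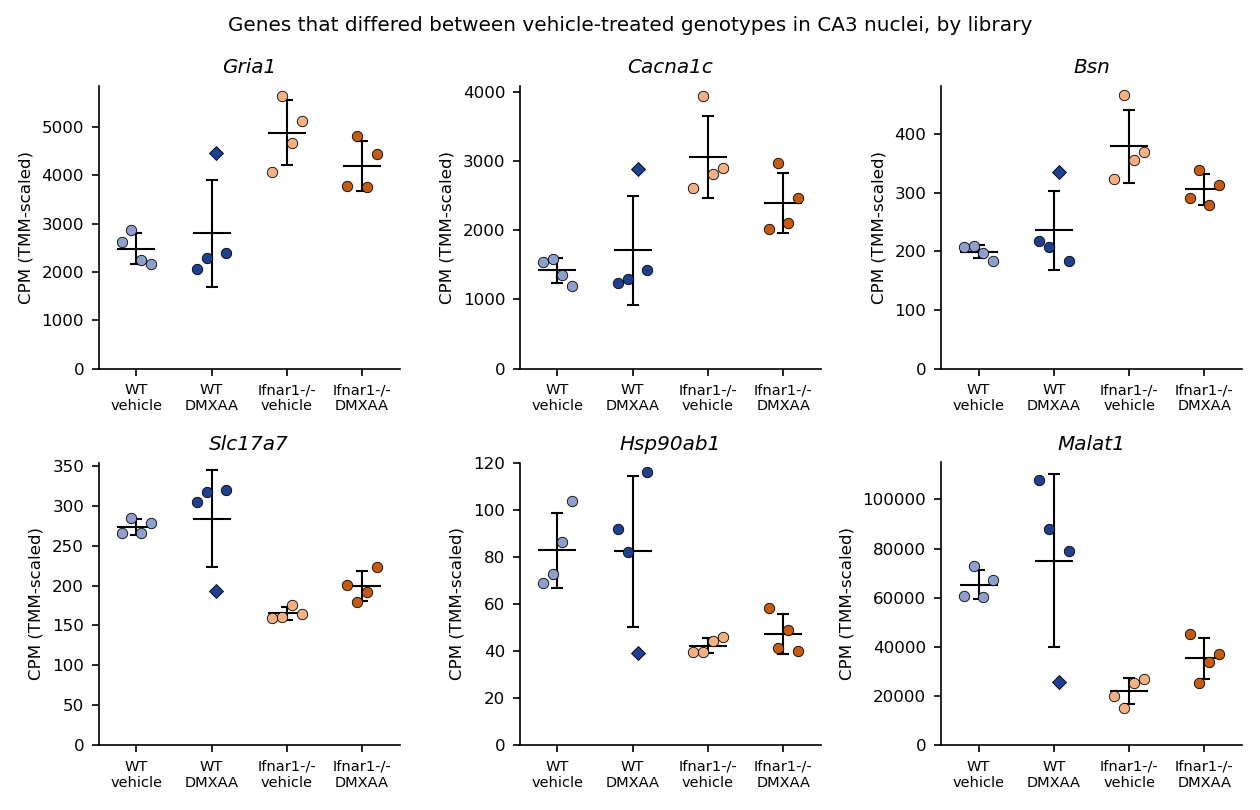
TMM-scaled CPM (y axis) of Gria1, Cacna1c, Bsn, Slc17a7, Hsp90ab1 and Malat1 in CA3 nuclei of each library (points) by group (x axis), with the mean and SD of 4 libraries; the diamond marks WT DMXAA replicate 3. For Gria1 and Slc17a7 it sat at 4456 and 193 CPM, apart from the other WT libraries at 2065 to 2868 and 266 to 320.2 CPM.

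The largest single-gene differences between the genotypes included genes of low level. Taco1, a mitochondrial translation activator, was at 13.4, 9.06, 9.86 and 11.1 CPM in WT vehicle and at 91.4, 182, 54.4 and 62.1 CPM in KO vehicle (3.16, SE 0.56, adjusted p = 0.00292), and WT DMXAA replicate 3, at 62.9 CPM, again lay with the KO libraries. Gm29237 was at 23.9, 25.8, 21.5 and 16.5 CPM in WT vehicle and at 1.60, 1.48, 5.33 and 4.81 CPM in KO vehicle (-2.67, adjusted p = 0.00292), with WT DMXAA replicate 3 at 4.94 CPM. Other large rises were those of Ebf1 (4.41), Slco1a4 (3.59), Tmem40 (3.58) and Mecom (3.29), and other large falls those of Arr3 (-3.53), Smim31 (-2.95) and Krt20 (-2.83). Ebf1 ranged from 0.241 to 0.711 CPM in WT vehicle and from 1.24 to 27.4 CPM in KO vehicle. Vascular cells express Ebf1, Slco1a4 and Mecom, and their markers moved beside these genes. The endothelial marker Flt1 was at 0.157 to 0.905 CPM in WT vehicle and 0.365 to 14.6 CPM in KO vehicle, and the sum of 6 endothelial and mural markers at 7.55 to 9.57 and 9.48 to 28.6 CPM. In the clusters without other markers Ebf1 was at 0 to 0.660 CPM in WT vehicle and 0.329 to 2.43 CPM in KO vehicle, and the marker sums were 8.16 to 12.6 and 5.12 to 10.1 CPM.

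The share of nuclei that met the CA3 rule did not differ at the threshold. In WT mice it was 4.60% ± 0.672 with vehicle and 5.89% ± 0.918 with DMXAA (mean ± SD, n = 4), a difference of 1.29 percentage points (two-sided exact permutation test over 70 arrangements, p = 0.0571, smallest possible p = 0.0286). In KO mice it was 4.96% ± 0.724 with vehicle and 4.92% ± 0.614 with DMXAA (exact permutation p = 0.943). A share of nuclei does not tell fewer CA3 nuclei from fewer nuclei that passed the marker rule, and the 7 markers and 7 excluded genes that define it were left out of the tests of levels.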

How the data were processed

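Nuclei of 16 hippocampal libraries (10x Chromium 3′, v3.1 per the labels and v3 per the study's methods) were analysed. The deposited matrices hold UMI counts of 32285 genes per barcode, made by the authors against mm10 with intronic reads of pre-mRNA counted; the submitters' notes name Cell Ranger 3.1.0 and Seurat 3.0, while the file headers name another Cell Ranger release. The study itself tested single nuclei with MAST.

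Counts were summed over members per library and tested with edgeR 4.0.16 (R 4.3.3; limma 3.58.1) in 1 quasi-likelihood fit over all 16 libraries, with TMM factors, filterByExpr and Benjamini-Hochberg adjustment over all genes. SE is the absolute log2 fold change over the root of F. CA3 was compared with CA1 and dentate nuclei in the 8 WT libraries with a term for each library. DESeq2 1.42.0 was an alternative, as were other filters, marker limits and left-out libraries. Members were clustered with leidenalg 0.10.2 (20 components, 20 neighbours, resolution 0.8), and doublets were sought among simulated pairs at 0.8% per 1000 barcodes and kept in the main result. Marker and summed interferon levels are CPM of all member UMIs. The statistics were tested on simulated data. The WT comparison recovered 25.4% of 1.5-fold, 65.7% of 2-fold and 90.9% of 4-fold changes (14764 genes). The class comparison recovered 1.49%, 14.9% and 63.6% (14806 genes), so smaller changes could be missed. The simulation changed 66 or 67 genes at each fold, whereas 3 were called in WT mice, and no simulated library stood apart from its group. The real comparisons may therefore recover less. Eif2ak2, Ddx60 and Oasl2 did not pass at WT log2 fold changes of 2.17, 3.41 and 4.57, so changes beyond 4-fold could be missed too. With 6071871 to 10386059 member UMIs per library, 1 CPM is 6 to 10 UMIs.

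Members and lists were chosen with earlier results of these data known. Named genes were, per comparison, up to 12 called genes with the largest rise and fall among those with no overlap between groups, otherwise the 5 with the lowest p per direction, together with called and highest-level genes of each list. Between genotypes most lists had many called genes, so these are given as counts with examples. Gene positions are from GENCODE M21 (GRCm38). The columns used were the counts of all 16 libraries, and none was left out. Results of some named genes are not reported here.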

Additional observations from a re-analysis of the deposited data

Results flagged for a closer look

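In WT DMXAA, replicate 1 stood far above the other 3 libraries for 4 interferon genes: Eif2ak2 at 25.9 CPM against 8.95 to 11.2, Ddx60 at 20.3 against 4.65 to 7.10, Oasl2 at 28.3 against 3.02 to 4.43, and Stat2 at 70.9 against 35.6 to 41.1 CPM. In WT vehicle, replicate 2 stood far below the others for Mef2c, at 57.7 CPM against 250.3 to 288.8, and for Pdzrn3, at 7.19 CPM against 100.2 to 118.0. That library held 0 nuclei of the cluster led by Cux2 and Mef2c, against 68 to 76 in the other WT vehicle libraries. Of 112 groups of 4 libraries examined, 6 had such a sample, and chance gives about 1 in 20.

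The effect of DMXAA in WT mice differed between CA3 and CA1 nuclei for Pcdh17 (0.78, adjusted p = 0.00237), Col5a2 (2.39, adjusted p = 0.0270), Galntl6 (0.50, adjusted p = 0.0270) and Cacna1i (0.59, adjusted p = 0.0344). It differed between CA3 and dentate granule nuclei for Pcdh17 (0.62, adjusted p = 0.00624), Eif2ak2 (-2.21, adjusted p = 0.00624), Ddx60 (-4.32, adjusted p = 0.00744), Sytl5 (1.60, adjusted p = 0.0156), Necab1 (-1.06, adjusted p = 0.0173), Ptn (-0.92, adjusted p = 0.0195), Anxa11 (-0.49, adjusted p = 0.0223), Ifit1 (-3.15, adjusted p = 0.0299), Irf9 (-1.12, adjusted p = 0.0393), Map3k5 (-0.52, adjusted p = 0.0432), Epha3 (-0.56, adjusted p = 0.0467) and Kctd16 (-0.46, adjusted p = 0.0467). Positive values are a larger effect in CA3 on the log2 scale. Over 10 other settings Pcdh17 lost neither call, whereas against CA1 the call was lost in 6 for Col5a2 and Galntl6 and in 7 for Cacna1i. Against dentate nuclei it was lost in 1 for Eif2ak2 and Ddx60, 2 for Necab1, 3 for Sytl5, 4 for Ptn, 5 for Ifit1, and 6 for Anxa11, Irf9, Map3k5, Epha3 and Kctd16.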

How the results depend on the processing

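The number of genes called in WT mice was small and moved with most settings, while the interferon median stayed positive. With 3 genes in the main result, DMXAA in WT called 24 with DESeq2 (5 lower), 12 with no filter on low counts, 13 with at least 3 markers, 1 with at least 5 markers, 1 with 200 to 4000 genes per nucleus, 0 without nuclei holding CA2 or mossy cell markers (by edgeR, with 706 at an unadjusted p under 0.05), 1 in clusters without other markers, and 130 in those clusters without WT DMXAA replicate 3 (44 higher and 86 lower), the last 2 settings being chosen after seeing the data. RLE size factors gave 3 and removal of doublet calls 4. Leaving out 1 library gave 1 to 66 genes in WT, 0 to 37 in KO, 0 for the interaction and 4349 to 7931 between genotypes. The 66 and 37 came without WT DMXAA replicate 3, 11 without KO DMXAA replicate 1 and 7 without WT DMXAA replicate 4, while Xaf1 alone was called without any 1 of the WT vehicle libraries, KO vehicle 1, 2 or 4, or KO DMXAA 2, 3 or 4. The interferon median was 0.612 to 0.991 in WT and 0.0556 to 0.205 in KO, and 1.44 in WT with no filter.

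Among other results, KO DMXAA called 1 gene (Syn3, lower) in clusters without other markers without WT DMXAA replicate 3. The interaction called 2 genes by DESeq2. The genotype contrast called 4046 genes at 200 to 4000 genes per nucleus. The CA1 difference called 207 genes with no filter and 1 to 74 without 1 library, and the dentate difference 25 by DESeq2, 314 with no filter and 4 to 83 without 1 library, both highest without WT vehicle replicate 2. The CA3 share difference without 1 library was 0.929 to 1.67 points in WT and -0.398 to 0.191 in KO, where it also changed sign to 0.199 with at least 5 markers (exact permutation p = 0.743) and 0.278 in clusters without other markers (exact permutation p = 0.6). The cause of these changes was not tested. Of 1470 values of 69 single-gene results under other settings, 1332 kept direction and side of the threshold, 84 lost the threshold, 47 gained it and 7 changed sign, none of these 7 past the threshold. In WT mice Dpp10, Gria4 and Pdzrn3 were at log2 fold changes of 0.7685, 0.1812 and 0.07284 in clusters without other markers, and Dpp10 and Gria4 at 0.2583 and 0.009034 in those clusters without WT DMXAA replicate 3. Without 1 library, log2 fold changes with DMXAA in KO mice were -0.02538 (without KO DMXAA replicate 4) to 0.4086 for Xaf1 and -0.01475 (without KO vehicle replicate 2) to 1.146 for Ifit1. No paired analysis was possible because the replicate numbers follow accession order and the labels tie no library to another.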

Other observations

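Gh, the pituitary growth hormone gene, was chosen after its values were seen. It was among the 66 genes called in WT mice without WT DMXAA replicate 3, as given above. WT DMXAA replicate 4 held 8828 Gh UMIs in 131 members, of which single nuclei held 6748 and 1775, and 27.2% of all its barcodes held a Gh UMI. In the other 15 libraries at most 33 member UMIs were counted, and 0% to 4.83% of barcodes held one.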
